A study of Mus musculus with 24 samples.

Results

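The cytosolic ribosomal protein genes were taken by name from the 24 transcript files: every gene whose reference name matched Rpl or Rps followed by a number, with or without a final a, x, y or l, together with Rplp0, Rplp1, Rplp2 and Rpsa. The rule found 79 of the 35260 genes that had a reference-named transcript, 47 of the large and 32 of the small ribosomal subunit. Of these, 76 are annotated as protein coding and 3 (Rps4l, Rpl32l and Rpl6l) as processed pseudogenes. The names Rpl17, Rpl29, Rpl3l and Rpl39l were not analysed here, and relatives such as Rps3a1, Fau and Rack1 fall outside the rule and are given separately.

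RNA came from C3H 10T1/2 cells, a mouse embryonic fibroblast line that can be turned towards skeletal muscle by the transcription factor MyoD. Wild-type cells and 2 clones in which LncMyoD, a long noncoding RNA, had been knocked out, here clone 1 and clone 2, were each left untreated, infected with a MyoD adenovirus, given a plasmid carrying LncMyoD, or given both, with 2 libraries in each of the 12 groups. Cells were grown in medium with 10% fetal bovine serum, which was changed to 2% horse serum after transdifferentiation, so MyoD and the medium may go together and cannot be told apart. Each knockout line is 1 clone, no group with an empty virus or empty plasmid was analysed here, the promoter of the virus is not given in the sources used here, and no label says whether the libraries of a group are separate cultures. The p-values therefore measure spread between libraries that may be technical only.

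Each eukaryotic ribosome carries 1 copy of nearly every ribosomal protein, and mammalian cells keep the messages of these proteins among their most abundant. The messages begin with a run of C and T at the 5′ end, the TOP motif, through which growth signals passing by mTOR set their translation together. Ribosome production is high in dividing cells and is known to be adjusted as myoblasts leave the cell cycle and become muscle fibres.

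The promoter stretches below are those of members at the ends of the comparisons. Rps24 and Rpl7a had the largest differences with MyoD in clone 2. Rpl15 and Rpl41 were among the largest differences between clone 2 and wild type. Rps6 is the protein phosphorylated by S6 kinase, and Rps12 was the 1 member lower in clone 2 after scaling between libraries. Each runs 5′ to 3′ on the strand of the gene from 50 bases before to 20 bases after the RefSeq start (GRCm38.p6), with the longest unbroken run of C and T in capitals (in Rpl41 the first of 3 runs of equal length). The positions are chr14:24490628-24490697 (plus strand, the first of 2 starts in the table), chr2:26910757-26910826 (plus), chr14:18270967-18271036 (minus), chr10:128549149-128549218 (minus), chr4:86857348-86857417 (minus) and chr10:23787190-23787259 (minus), in the order shown.
Rps24: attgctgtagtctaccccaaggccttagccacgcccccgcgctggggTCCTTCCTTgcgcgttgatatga
Rpl7a: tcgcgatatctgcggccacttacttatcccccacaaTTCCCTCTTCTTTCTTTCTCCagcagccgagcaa
Rpl15: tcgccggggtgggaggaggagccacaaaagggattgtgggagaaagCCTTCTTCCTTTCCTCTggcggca
Rpl41: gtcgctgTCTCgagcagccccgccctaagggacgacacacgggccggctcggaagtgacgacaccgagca
Rps6: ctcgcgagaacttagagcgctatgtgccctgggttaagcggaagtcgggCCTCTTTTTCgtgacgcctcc
Rps12: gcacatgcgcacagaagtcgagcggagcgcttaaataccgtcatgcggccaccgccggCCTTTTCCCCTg

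The run was 21 bases in Rpl7a, 17 in Rpl15, 11 in Rps12, 10 in Rps6 and 9 in Rps24. In Rpl41 no run in this window was longer than 4 bases, and 3 runs had that length. RefSeq promoters of 300 bases (250 before and 50 after the start) were matched for 59 of the 79 members. A run of at least 10 C or T on the sense strand within 50 bases of the start was present in 43 of the 59 (72.9%), against 20.6% of the 27025 genes in the table. On either strand of the 300 bases, CCGGAAG stood in 24 of 59 members (40.7%) and in 9.93% of all genes, CTTTCC in 52.5% against 29.3%, GGGCGG in 61.0% against 38.2%, and AAGATGGC in 8.47% against 3.19%. TATAAA stood in 11.9% of members and 15.7% of all genes, CACGTG in 10.2% and 8.09%, and CAGCTG, an E-box of the kind MyoD binds, in 3 members (5.08%) and 18.3% of all genes. CTTTCC can lie inside a C and T run, so these 2 counts overlap.

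The libraries of clone 2 stood apart from the other lines. Levels were the summed TPM (a length-normalised share of transcripts) of a gene's transcripts, scaled between libraries by the median of ratios over 7646 genes found in every library, and tests were run on log2(scaled TPM + 1), which understates the change of low genes. A window on chromosome 17 whose annotated genes overlap ribosomal RNA sequence took only 2.68 to 7.90% of TPM in clone 2, where the 8 wild-type libraries gave it 55.6 to 69.2% and the 8 of clone 1 36.8 to 70.0%. Mitochondrial genes held 7.91 to 14.0% in clone 2 against 2.06 to 3.84% in wild type and 1.32 to 2.20% in clone 1. The files imply 2.43 to 5.93 gigabases of aligned sequence per library and hold no read counts. Myod1 stood at 0 to 3.76 TPM in the 12 libraries without virus and at 930 to 3735 in the 12 with it. Its level with virus was lowest for clone 2, whose libraries ran from 930 to 1222 TPM. Those of clone 1 ranged between 1665 and 3641 TPM. Wild-type libraries with virus spanned 3301 to 3735 TPM. The lines were thus not matched for Myod1 level, and the part of this in their MyoD responses was not tested. An unnamed spliced transcript on the minus strand within 60 kb before Myod1 was listed in 12 of 12 plasmid libraries (2.64 to 53.3 TPM) and in 1 of the 12 others (0.692 TPM, a clone 1 MyoD library), so the files show the plasmid but give no check of the deletion itself. The 10 fibroblast markers summed to 1245 to 3528 scaled TPM in clone 2, with wild type at 925 to 1066 and clone 1 at 515 to 783, while 4 epithelial markers summed to 0 in every library. The fibroblast sum does not stand for each marker: 6 of the 10 were higher in clone 2 than in wild type, among them Col1a1 (2.04-fold), Col1a2 (2.72-fold) and Col3a1 (3.62-fold), and 4 were lower, Thy1 (log2 difference −2.34), Pdgfra (−1.86), Fn1 (−1.28) and Pdgfrb (−0.47). Over all genes 33.9% were higher and 21% lower in clone 2 than in wild type.

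The 79 members together took a small share of the deposited TPM in wild type and clone 1 and a far larger one in clone 2. The share had a median of 0.0687% in wild type (range 0.0537 to 0.0764%) and of 0.0471% in clone 1 (range 0.0429 to 0.0667%). In clone 2 its median was 2.6% (range 2.1 to 3.32%). As a share of protein-coding TPM alone it reached 3.06 to 5.49% in clone 2, while wild type had 0.342 to 0.492% and clone 1 had 0.292 to 0.576%. After scaling, the sum of the members lay between 4890 and 10583 in clone 2, between 844 and 1059 in wild type and between 794 and 1026 in clone 1. The 8 clone 2 libraries lay above all 16 others on each of these measures. In bulk RNA, fewer cells of a kind and less RNA per cell cannot be told apart.

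**Figure D1:**
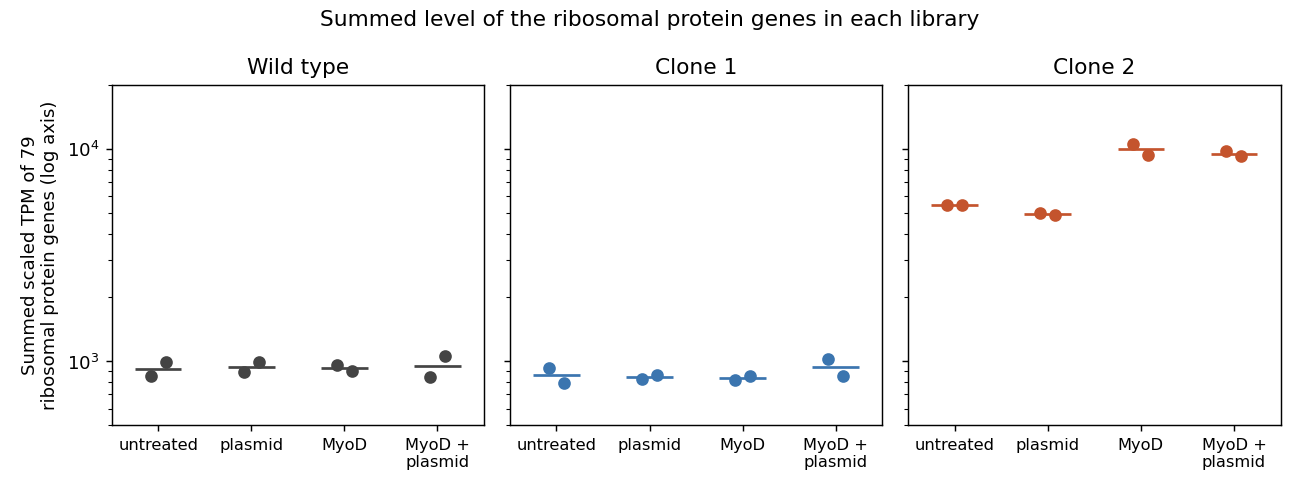
Summed scaled TPM of the 79 ribosomal protein genes in each library (log axis), by line and treatment. Points are libraries and short lines are means of 2 libraries. Wild type and clone 1 sit between 794 and 1059 whatever the treatment, clone 2 without MyoD between 4890 and 5469, and clone 2 with MyoD between 9226 and 10583.

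With MyoD the summed level moved by less than its spread in wild type and clone 1 and was higher in clone 2. The sum was 936 ± 70.0 scaled TPM without MyoD and 942 ± 91.8 with it in wild type (SD, n = 4 each), a ratio of 1.01. In clone 1 it was 855 ± 60.6 and 889 ± 93.1, a ratio of 1.04. In clone 2 it was 5199 ± 289 and 9735 ± 605, a ratio of 1.87, and the 4 libraries with MyoD all lay above the 4 without. Clone 2 over wild type was 7.95 and clone 1 over wild type 0.929.

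The balance between the subunits also differed by line. Large-subunit TPM divided by small-subunit TPM was 1.97 ± 0.104 in wild type, 1.94 ± 0.106 in clone 1 and 1.62 ± 0.0725 in clone 2 (SD, n = 8). The highest clone 2 value, 1.74, was below the lowest wild-type value, 1.83, and below the lowest of clone 1, 1.80. Within clone 2 the ratio was 1.64 ± 0.0934 without and 1.60 ± 0.0509 with MyoD (n = 4), a difference smaller than the spread.

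The order of the members by level was close in wild type and clone 1 and changed in clone 2. By line median the first 5 in wild type were Rplp0 (65.0 scaled TPM), Rpl4 (64.0), Rpl19 (52.2), Rps12 (38.5) and Rpl41 (28.2). In clone 1 they were Rpl4 (67.9), Rplp0 (53.0), Rpl41 (35.9), Rpl19 (30.9) and Rpl13a (25.9). In clone 2 they were Rpl13 (304), Rplp0 (263), Rpl19 (257), Rps14 (254) and Rpl4 (219.9). Across 75 members the line medians of wild type and clone 1 had Pearson's r of 0.954 and Spearman's rho of 0.931, and those of wild type and clone 2 had 0.584 and 0.527. These are correlations across genes that share libraries, and genes are not independent replicates. The number of members with a median over 100 scaled TPM was 0, 0 and 29 in wild type, clone 1 and clone 2. Over all 24 libraries Rpl4, Rplp0 and Rpl19 had the highest medians (71.9, 70.0 and 53.1), and Rpl21, Rps2 and Rps4l the lowest of those tested (0, 0 and 0.0361).

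Whether MyoD changes these genes was asked in each line, 4 libraries with the virus against 4 without, pooled over the plasmid. In wild type 0 of 78 tested members passed an adjusted p of 0.05 (limma, Benjamini-Hochberg over 18400 genes), where 0.293% of all genes did, and 5 members (6.41%) had an unadjusted p under 0.05, as did 5.21% of all genes. In clone 1 it was 0 of 78, against 0.957% of all genes, with 9 (11.5%) at an unadjusted p under 0.05, where 12.9% of all genes were. The median log2 difference of the members was 0.01 in wild type and 0.04 in clone 1, with the interquartile range from −0.13 to 0.16 and from −0.11 to 0.29. In clone 2, 53 of 78 rose and 0 fell, against 5.14% of all genes that rose and 3.46% that fell. The median there was 0.93, or 1.90-fold, with an interquartile range of 1.69- to 2.08-fold, while the median over all genes was 0.01. In 70 members every clone 2 library with MyoD was above every one without, a pattern held by 14.7% of all genes, and in 1 member (Rps4l) every library was below, a pattern held by 9.01%. The rise covered both subunits, with 32 of 46 large-subunit members (median 0.94) and 21 of 32 small-subunit members (median 0.90). By the TPM as deposited the count was 28 higher and 1 lower with a median of 0.51, where 4.03% of all genes were higher and 16.4% lower. Scaled to the TPM of other protein-coding genes it was 23 higher with a median of 0.70, where 1.89% of all genes were higher.

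**Figure D2:**
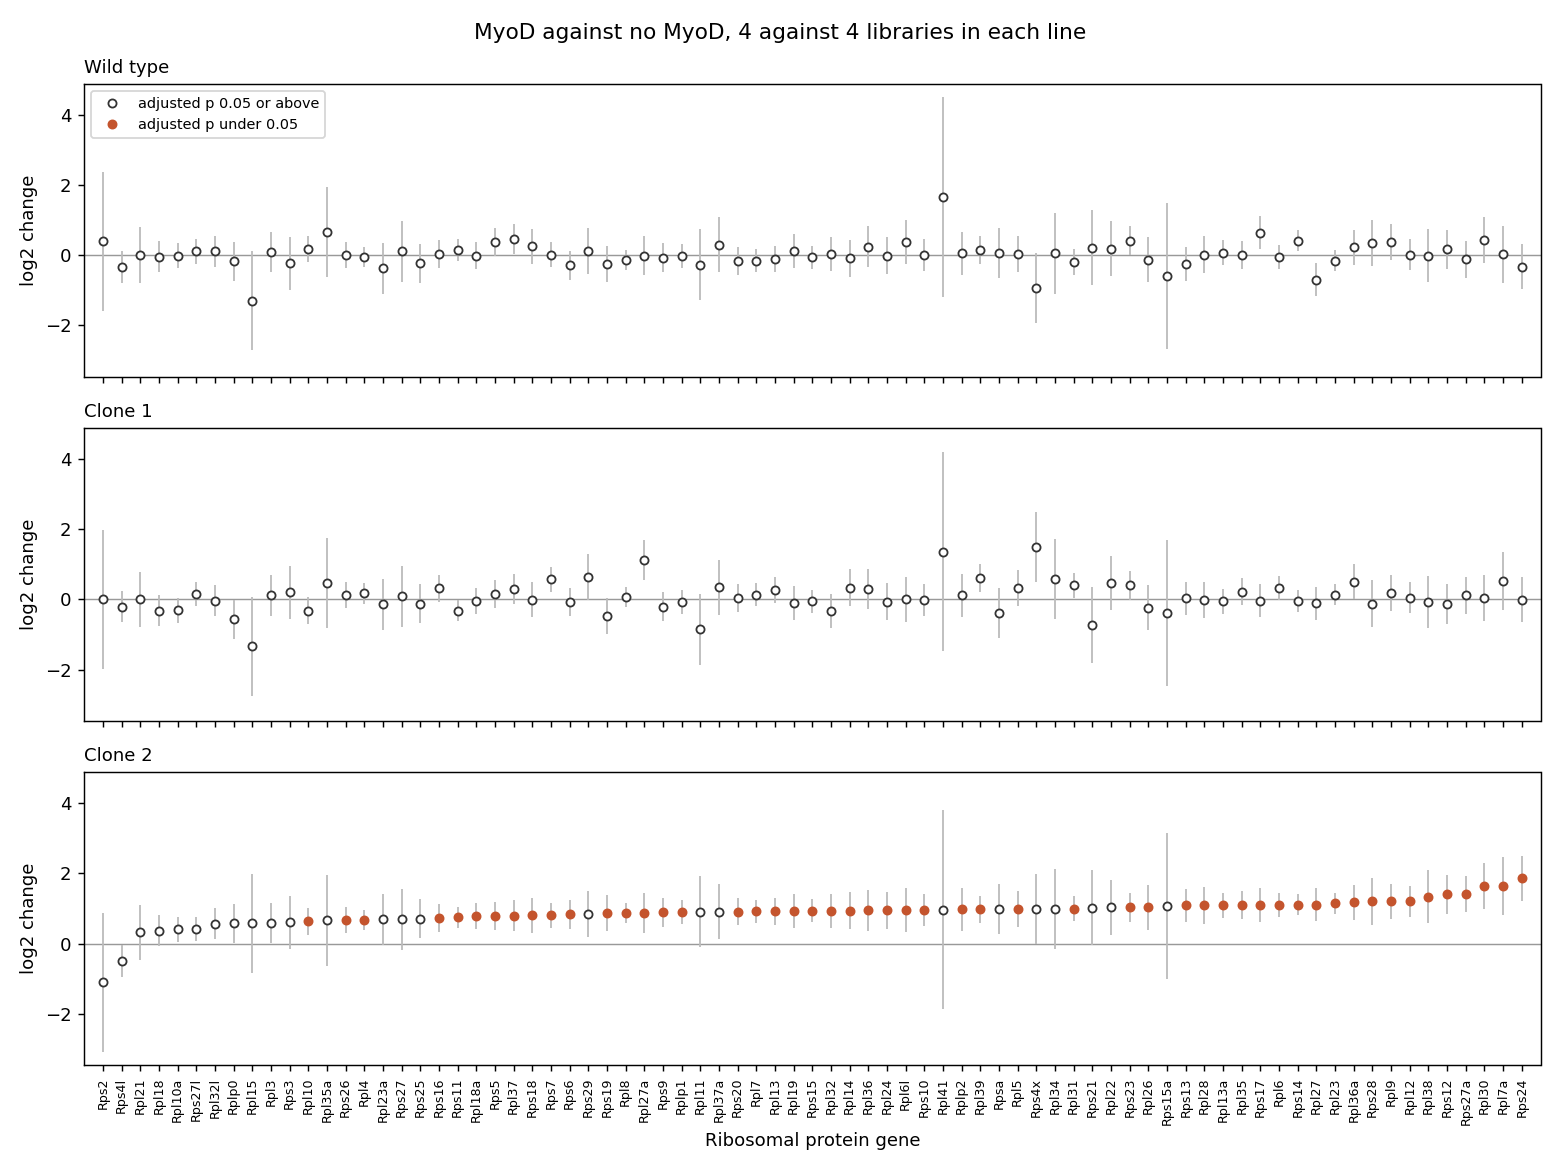
Log2 difference with 95% interval between 4 libraries with and 4 without MyoD for 77 of the 78 tested members, in the 3 lines, ordered by the clone 2 value. Filled points have an adjusted p under 0.05. The filled points are all in clone 2, where all values except those of Rps2 and Rps4l are above 0, while wild type and clone 1 scatter about 0.

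The members with the largest rises in clone 2 were Rps24, Rpl7a, Rpl30, Rps27a and Rps12. Rps24, a small-subunit protein mutated in some Diamond-Blackfan anaemia families (chr14:24487125-24496959, plus strand, GRCm38), stood at 46.0, 29.7, 44.1 and 46.1 scaled TPM without MyoD and at 137, 141, 180.5 and 147 with it. The groups were far apart, and the difference was 1.86 on the log2 scale (SE 0.29, adjusted p = 7.9e-04, limma). In wild type Rps24 was 7.75, 4, 2.02 and 2.94 without and 2.37, 4.16, 1.73 and 3.38 with MyoD, and these groups overlapped. Unscaled exon coverage in clone 2 was 38.0, 35.3, 32.3 and 27.5 without MyoD and 60.6, 52.7, 57.8 and 49.3 with it. The rise was smaller than in unscaled TPM, at 184, 129, 193 and 194 without MyoD and 410, 398, 590 and 514 with it.

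Rpl7a, a large-subunit protein, was listed at 11.1, 14.4, 21.2 and 9.36 in clone 2 without MyoD and at 37.7, 33.1, 36.8 and 80.9 with it. The arms did not overlap, and 1 library with both agents was far above the other 3 (3.13-fold, adjusted p = 0.011, limma). In wild type and clone 1 Rpl7a was listed at 0 in 12 of 16 libraries and below 2 in the rest. Reference-named transcripts made up only 17.3% of its TPM over all libraries, nearly all of which lay in clone 2. Rpl30 stood at 36.8, 36.3, 21.0 and 18.8 and 91.7, 64.1, 71.1 and 131, again without overlap (3.12-fold, adjusted p = 0.0024, limma), but from reference-named transcripts alone the difference was −0.06.

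Rps27a, made as a fusion of ubiquitin and a small-subunit protein (chr11:29545846-29548109, minus strand), stood at 36.1, 32.3, 26.3 and 29.9 without MyoD and 71.5, 89.8, 69.0 and 114 with it in clone 2. Every library with MyoD was above every one without (2.67-fold, adjusted p = 0.0013, limma). Rps12 stood at 12.3, 11.5, 8.89 and 9.71 and 30.1, 30.6, 30.3 and 27.2 (2.65-fold, adjusted p = 0.0023, limma). With MyoD it lay within the wild-type range of 22.4 to 48.2 (median 38.5), and without MyoD it was below all 8 wild-type libraries. Most of its TPM came from assembled transcripts without a reference name (reference-named ones gave 7.05%), and on the reference-named ones alone the difference was −0.33.

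The ribosomal stalk, which recruits the elongation factors, is built on Rplp0 with Rplp1 and Rplp2 and rests next to Rpl12. In clone 2 Rpl12 stood at 21.6, 19.2, 19.2 and 18.0 without MyoD and 46.5, 43.1, 46.2 and 49.1 with it, a rise of 2.30-fold (adjusted p = 0.0012, limma). Rplp1 rose 1.86-fold from 82.8 ± 9.24 to 155 ± 24.4 (SD, n = 4; adjusted p = 0.0019, limma), and Rplp2 1.97-fold from 18.3 ± 0.799 to 36.9 ± 2.18 (adjusted p = 0.042). Rplp0, the core of the stalk and the most abundant of the 4, stood at 238, 230.1, 217 and 199.8 and 409.9, 309.6, 319 and 288. Its arms did not overlap but its difference of 0.57 (95% interval 0.02 to 1.12) had an adjusted p of 0.21 (limma). In wild type the 4 stalk genes differed with MyoD by less than their spread: Rplp1 was 26.5 ± 2.53 without and 25.9 ± 1.44 with MyoD, and Rplp0 66.5 ± 17.3 and 57.7 ± 10.5.

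Rpl5, Rpl11 and Rpl23 bind MDM2, the ubiquitin ligase of p53, when ribosome assembly is disturbed. In clone 2 Rpl23 stood at 53.4, 48.0, 50.3 and 50.4 without MyoD and 121, 109, 112 and 111 with it. This was the member with the smallest adjusted p in this comparison (2.21-fold, adjusted p = 6.8e-05, limma), and its groups were tight and far apart. Rpl5 rose 1.98-fold from 44.9 ± 2.93 to 89.7 ± 7.50 (SD, n = 4; adjusted p = 0.014). Rpl11 stood at 55.7, 75.3, 78.4 and 71.2 and 164, 99.2, 134 and 135. Its arms did not overlap, but its adjusted p was 0.31 (limma), with an SE of 0.47: the wild-type and clone 1 libraries reached down to 0.211 and 0.184, and the fit shares 1 spread over all groups.

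Of the other members with known roles outside the ribosome or in its control, Rps6, the S6 kinase substrate, stood at 142, 149.9, 126 and 118 without MyoD and 241, 242, 225 and 241 with it in clone 2 (1.78-fold, adjusted p = 0.0099, limma). Rps19, the gene most often mutated in Diamond-Blackfan anaemia, rose 1.82-fold from 93.9 ± 4.72 to 172 ± 18.0 (SD, n = 4; adjusted p = 0.032). Rpl13a, which also forms part of an interferon-gamma-regulated translational silencing complex, rose 2.13-fold from 92.1 ± 5.80 to 198 ± 21.8 (adjusted p = 5.0e-04). Rpsa, also described as a laminin receptor, went from 41.4 ± 8.01 to 81.9 ± 10.9 with an adjusted p of 0.079 (limma), so it did not pass.

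Paralogs of ribosomal proteins are often tissue restricted. Rpl10l, the testis copy of Rpl10, was above 0 in 3 of 24 libraries (at most 1.90 scaled TPM) and was not tested. Rpl10 itself rose 1.55-fold in clone 2, from 167 ± 11.4 to 259 ± 26.2 (SD, n = 4; adjusted p = 0.031, limma). Rps27l, a p53 target, stood at 119.6, 110.0, 101 and 110.4 and 144, 136, 159 and 152 in clone 2 (1.34-fold, 95% interval of the log2 difference 0.07 to 0.76, adjusted p = 0.13), and Rps27 went from 91.9 ± 7.12 to 149 ± 10.0 (1.61-fold, adjusted p = 0.39); neither passed. Rpl39 rose 1.97-fold (adjusted p = 0.0025, limma). Rpl3, with a log2 difference of 0.59 (adjusted p = 0.22, limma), and Rps4x, with 0.98 (adjusted p = 0.24), did not pass. The clone 2 arms of both, and of Rps27l and Rps27, did not overlap. Rpl3 stood at 142, 134, 119 and 116 without MyoD and 193, 222, 178 and 176 with it. Rps4x stood at 98.2, 94.6, 85.5 and 75.9 and 176, 173, 177 and 175. Rps4x reached down to 0.281 in a clone 1 library, and the fit shares 1 spread over all groups. Rps4l, an annotated pseudogene, was at most 1.58 in any library.

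The 25 members that did not pass in clone 2 included some with large spread or with libraries listed at 0. Rpl41 stood at 122, 202, 159.5 and 111 without MyoD and 366, 244, 317 and 229 with it, but was listed at 0 in 3 of 8 wild-type and 3 of 8 clone 1 libraries, and its SE was 1.31. Rpl15 stood at 20.2, 64.9, 56.4 and 71.7 and 130.3, 47.3, 50.5 and 86.9, which overlapped. Rps2, 1 of the 2 members with a value below 0, stood at 18.4, 18.8, 39.8 and 4.23 and 37.2, 0, 31.6 and 2.05, spread from 0 to 39.8 within 1 line, and its log2 difference was −1.11 (SE 0.91, adjusted p = 0.63). When the TPM of processed pseudogene copies of each member was added to it, the Rps2 value became 0.53. Rpl21 was listed at 0 in all 16 libraries of wild type and clone 1 and at no more than 2.47 in clone 2, and Rpl32l, an annotated pseudogene, was listed at 0 in both libraries of 2 groups.

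**Figure D3:**
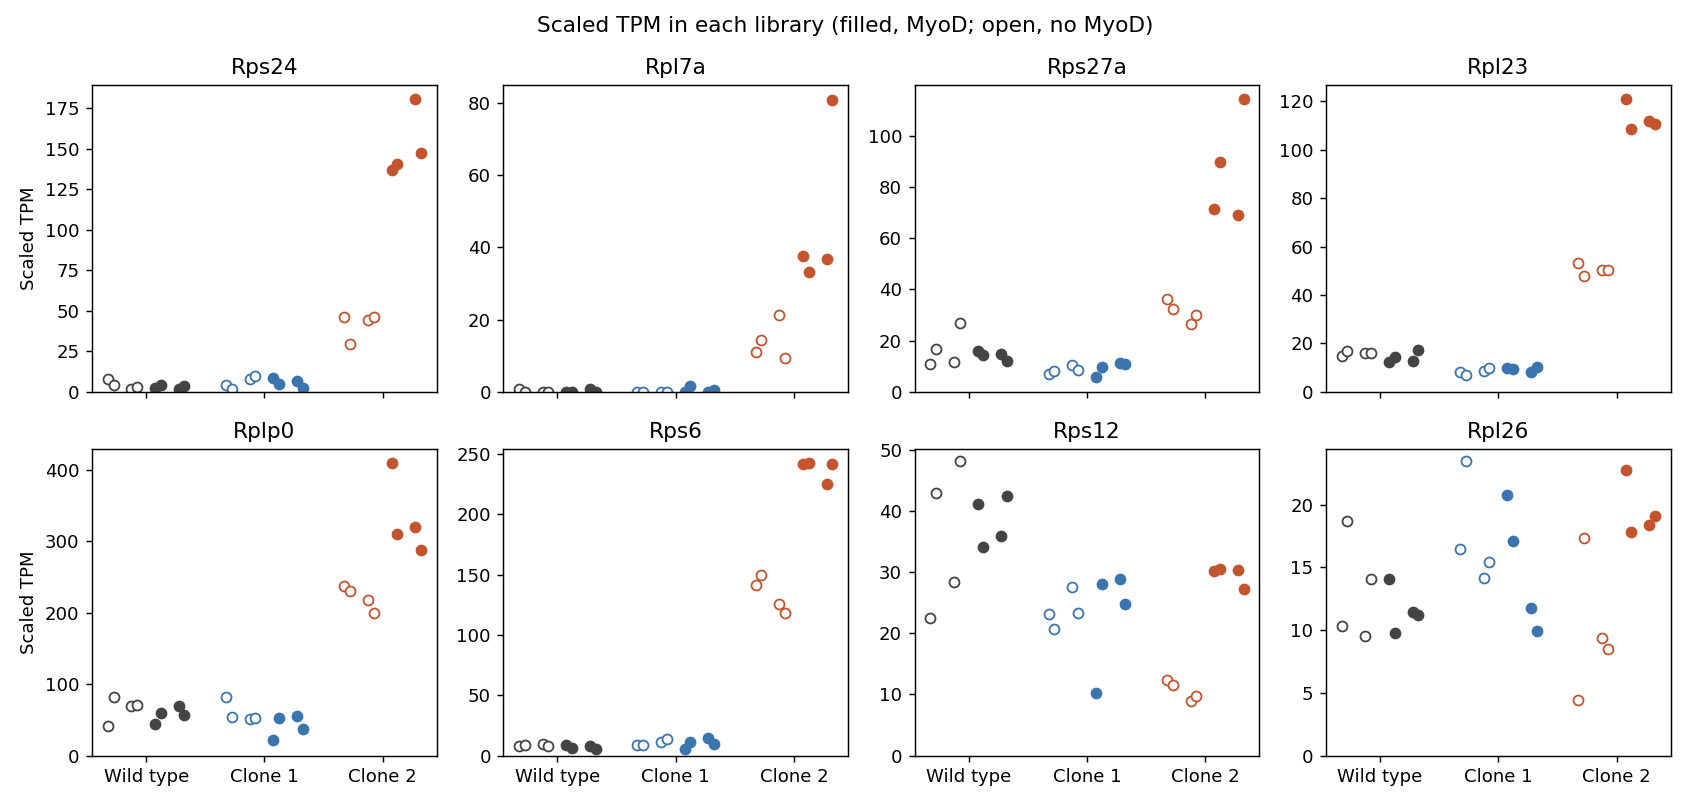
Scaled TPM of 8 members in each of the 24 libraries, by line; filled points had MyoD and open points did not. In clone 2 the filled points lie above the open points for Rps24, Rpl7a, Rps27a, Rpl23, Rplp0, Rps6, Rps12 and Rpl26, while in wild type and clone 1 they overlap. Clone 2 lies above wild type in every library for Rps24, Rpl7a, Rpl23, Rplp0 and Rps6, and below it without MyoD for Rps12.

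The test of whether the MyoD difference in clone 2 differs from that in wild type found 18 of 78 members, 18 higher and 0 lower, against 1.35% of all genes higher and 1.15% lower. The median of this difference was 0.92 over the members and 0.04 over all genes. The 5 largest were Rps24 (2.185, SE 0.42, adjusted p = 0.011, limma), Rpl27 (1.81), Rps27a (1.54), Rps13 (1.34) and Rpl23 (1.302). For Rpl27 the wild-type libraries stood at 16.0, 15.2, 5.72 and 13.2 without MyoD and 7.50, 5.30, 5.33 and 10.1 with it, and those of clone 2 at 45.9, 46.0, 41.7 and 41.8 and 99.6, 99.4, 99.5 and 85.7. For Rps13 they stood at 11.8, 10.0, 14.8 and 16.2 and 11.6, 14.2, 6.56 and 12.3 in wild type and at 37.0, 37.6, 31.7 and 37.6 and 82.1, 80.1, 70.2 and 77.2 in clone 2. In both genes the clone 2 arms were apart and the wild-type arms overlapped. The count was 3 by the deposited TPM, by quantile normalization and by scaling to other protein-coding TPM, where 0.875%, 0.582% and 0.239% of all genes were higher. It was 7 without the second wild-type plasmid library, and 7 on reference-named transcripts, where 1.198% of all genes were higher. Between clone 1 and wild type the same test found 0 of 78 members (0.141% of all genes, limma), with 7 members (8.97%) and 8.4% of all genes at an unadjusted p under 0.05.

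The level without regard to MyoD was compared between lines, 8 libraries against 8. In clone 2, 75 of 78 members were higher than in wild type and 1 was lower, against 33.9% of all genes higher and 21% lower. The median log2 difference was 2.94, or 7.69-fold, and that over all genes 0.13. In 69 members every clone 2 library lay above every wild-type library, a pattern held by 18.7% of all genes. The size varied widely: 13 members differed by more than 4 on the log2 scale, 38 by more than 3, and the interquartile range was 4.42- to 14.0-fold. The small-subunit median was 3.40 and the large-subunit median 2.87. By the deposited TPM all 78 members were higher, where 70.7% of all genes were higher and 4.62% lower. The median of the members was then 5.38, and that over all genes moved to 1.39.

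**Figure D4:**
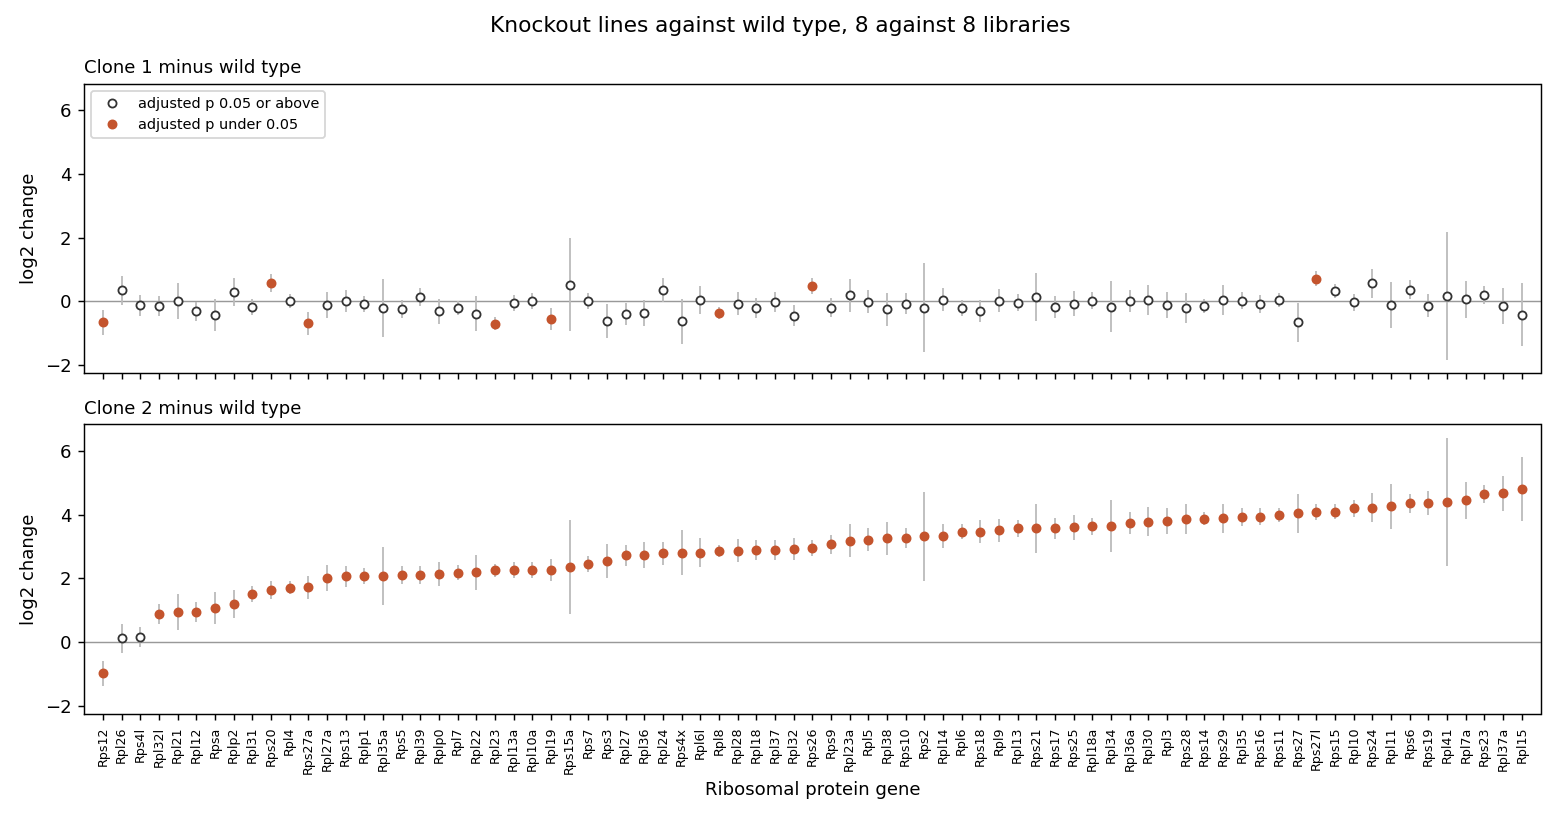
Log2 difference with 95% interval from wild type for 77 of the 78 tested members in clone 1 and clone 2, 8 libraries against 8, ordered by the clone 2 value. Filled points have an adjusted p under 0.05. Clone 2 values run from −0.98 (Rps12) to 4.81 (Rpl15), and clone 1 values lie between −0.70 and 0.71.

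The largest differences of clone 2 from wild type were in Rpl15, Rpl37a, Rps23, Rpl7a and Rpl41. Rps23, a protein of the decoding centre, stood at 1.62 to 5.52 (median 2.87) in the 8 wild-type libraries and at 65.2 to 161 (median 104) in clone 2. No value came close between the lines (25.3-fold, adjusted p = 2.7e-14, limma). Rpl37a stood at 1.79 to 5.06 (median 3.36) and 70.1 to 158, median 116 (25.5-fold, adjusted p = 7.2e-11). Rpl15 stood at 0 to 6.65 (median 0.852) in wild type, with 3 of 8 libraries listed at 0, and at 20.2 to 130.3 (median 60.7) in clone 2 (28.1-fold, adjusted p = 1.0e-07). Rpl7a and Rpl41 had 22.0- and 21.3-fold, also with wild-type libraries listed at 0.

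Rps19 and Rps6 were among the members that differed most with complete values in every library. Rps6 stood at 5.24 to 9.75 (median 8.02) in wild type and 118 to 242 (median 188) in clone 2 (20.5-fold, adjusted p = 5.2e-14, limma), and Rps19 at 3.41 to 7.19 (median 5.36) and 89.2 to 195, median 126 (20.7-fold). Rps27l and Rps27 were 17.0- and 16.6-fold higher, Rpl10 18.4-fold, Rpl11 19.2-fold, Rpl3 14.0-fold, Rpl5 9.32-fold and Rps4x 6.97-fold. The stalk members differed less: Rplp0 4.38-fold, Rplp1 4.19-fold, Rplp2 2.28-fold and Rpl12 1.93-fold, with the adjusted p largest in Rplp2, at 7.3e-05 (limma). Rpl12 stood at 12.9 to 18.1 (median 14.9) in wild type and at 18.0 to 49.1 (median 32.3) in clone 2, so the ends of the 2 ranges just met. Rpsa was 2.11-fold, Rps27a 3.28-fold, Rpl39 4.31-fold, Rpl23 4.78-fold and Rpl13a 4.80-fold higher.

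By the median-of-ratios scaling, Rps12, Rpl26 and Rps4l did not share this difference. By the deposited TPM all 78 tested members were called higher in clone 2, where 70.7% of all genes were higher and 4.62% lower. Rps12 stood at 22.4 to 48.2 (median 38.5) in wild type, among the 5 most abundant members there, and at 8.89 to 30.6 (median 19.8) in clone 2, where it was lower by this scaling (log2 difference −0.98, adjusted p = 1.9e-04, limma) but higher by 1.46 in the deposited TPM and at 0.06 on reference-named transcripts alone. Rpl26, a protein that also binds the p53 message, stood at 9.54 to 18.7 (median 11.3) and 4.45 to 22.7 (median 17.6) with a log2 difference of 0.12 (95% interval −0.34 to 0.58, adjusted p = 0.66). In Rpl26, too, most TPM lay on transcripts without a reference name (reference-named ones gave 24.1%), and within clone 2 it stood at 4.45, 17.4, 9.33 and 8.47 without MyoD and 22.7, 17.8, 18.4 and 19.1 with it (2.05-fold, adjusted p = 0.038, limma). Rps4l had a log2 difference of 0.16 (adjusted p = 0.39).

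Clone 1 lay close to wild type. Of 78 members, 3 were higher and 5 lower, against 12.2% of all genes called in either direction (4% higher and 8.22% lower), a share of 10.3% that is near the background. The median was −0.09 and that over all genes −0.01. Higher were Rps27l, at 5.21 to 8.45 (median 6.34) in wild type and 7.16 to 15.3 (median 11.4) in clone 1 (1.64-fold, adjusted p = 4.6e-04, limma), Rps20 (1.48-fold) and Rps26 (1.39-fold). In Rps20 alone all clone 1 libraries, at 10.5 to 15.8 (median 12), were above all wild-type ones, at 6.27 to 10.0 (median 7.93), a pattern held by 0.549% of all genes. Lower was Rpl23, at 12.5 to 17.2 (median 15.3) in wild type and 7.04 to 10.2 (median 9) in clone 1 (log2 difference −0.70, adjusted p = 1.2e-04, limma), with no overlap between the lines, a pattern held by 2.2% of all genes in this direction. Rps27a, Rps12, Rpl19 and Rpl8 were lower too, with log2 differences of −0.70, −0.66 (0.36 on reference-named transcripts alone), −0.57 and −0.37. In clone 2, Rpl23, Rps27a, Rpl19 and Rpl8 were higher than wild type, and both comparisons share the wild-type libraries. With pseudogene copies added the count in clone 1 was 12 higher and 4 lower, where 4.12% of all genes were higher and 8.24% lower. By the deposited TPM it was 0 higher and 27 lower, where 1.33% of all genes were higher and 14.7% lower.

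No member passed the test for the LncMyoD plasmid. Over the 3 lines, 12 libraries against 12, 0 of 78 passed (0.00543% of all genes, limma) and 4 (5.13%) had an unadjusted p under 0.05, as did 5.73% of all genes. The median log2 difference was 0.01 with an interquartile range of −0.05 to 0.08. In clone 2 with MyoD, Rps6 stood at 241 and 242 without and 225 and 241 with the plasmid, and Rpl23 at 121 and 109 without and 112 and 111 with it.

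Other genes of the translation machinery and its control, and genes with TOP-motif messages, were read from lists chosen with the earlier results known. Over all genes, 5.14% rose and 3.46% fell with MyoD in clone 2. Against wild type, 33.9% of all genes were higher and 21% lower in clone 2. Of 7 ribosomal protein genes and relatives outside the name rule, 3 rose with MyoD in clone 2 (Rpl36al, 2.12-fold; Fau, 1.90-fold; Rack1, 1.84-fold) and all 7 were higher in clone 2 than in wild type (median log2 3.25). Of 20 genes listed for TOP-motif messages, translation factors and others, 8 rose with MyoD in clone 2 and 0 fell (median 0.69). Among the 8 were Npm1 (2.93-fold), a ribosome chaperone, Tpt1 (2.63-fold) and Pabpc1 (1.97-fold), the poly(A)-binding protein. Npm1 stood at 63.1, 61.1, 97.5 and 134 scaled TPM without MyoD and 371, 298, 274 and 126 with it, so its arms overlapped. All 20 were higher in clone 2 than in wild type (median 1.84). Of 30 ribosome assembly factors only Nop10, a box H/ACA component, rose with MyoD in clone 2 (2.52-fold, median of the list 0.07), while 22 were higher and 1 lower in clone 2 than in wild type (median 1.25). Of 12 genes of ribosomal DNA transcription, Taf1a rose (2.80-fold) and Myc fell (log2 −1.76) with MyoD in clone 2, and against wild type 6 were higher and 3 lower (median 0.75). Of 12 mTOR pathway genes 0 passed with MyoD in clone 2, and against wild type 4 were higher and 6 lower, including Rheb at 3.10, Tsc2 at −3.62 and Ddit4 at −3.26 on the log2 scale. Of 78 mitochondrial ribosomal protein genes 8 rose with MyoD in clone 2 (median 0.61), and 61 were higher and 6 lower in clone 2 than in wild type (median 2.06).

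Short messages as a class moved in the same direction. Among other protein-coding genes the median log2 difference with MyoD in clone 2 was 0.59 for 281 genes with an annotated mRNA of up to 600 nt, 0.49 for 861 genes of 601 to 1000 nt, 0.20 for 2960 genes of 1001 to 2000 nt, and −0.04 for 3381 genes over 4000 nt. The members had 0.97 (26 genes), 0.92 (33), 0.91 (14) and, for 2 members of 2001 to 4000 nt, 0.95, where the other 4848 genes had −0.01. Between clone 2 and wild type the other genes had 1.2, 1.32, 0.84, 0.19 and −0.55 from the shortest class to the longest, and the members 3.57, 2.88, 2.40 and 2.42. By median, members were above other genes in each length class that held them. Of the other genes, 28.1% in the shortest class and 20.7% in the next were called higher with MyoD in clone 2. For clone 2 against wild type these shares were 64.4% and 66.1%. Over all tested genes 5.14% were called higher with MyoD in clone 2 and 33.9% in clone 2 against wild type. Across 75 members length and the clone 2 difference had Pearson's r of −0.13 and Spearman's rho of −0.09, a description across genes.

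**Figure D5:**
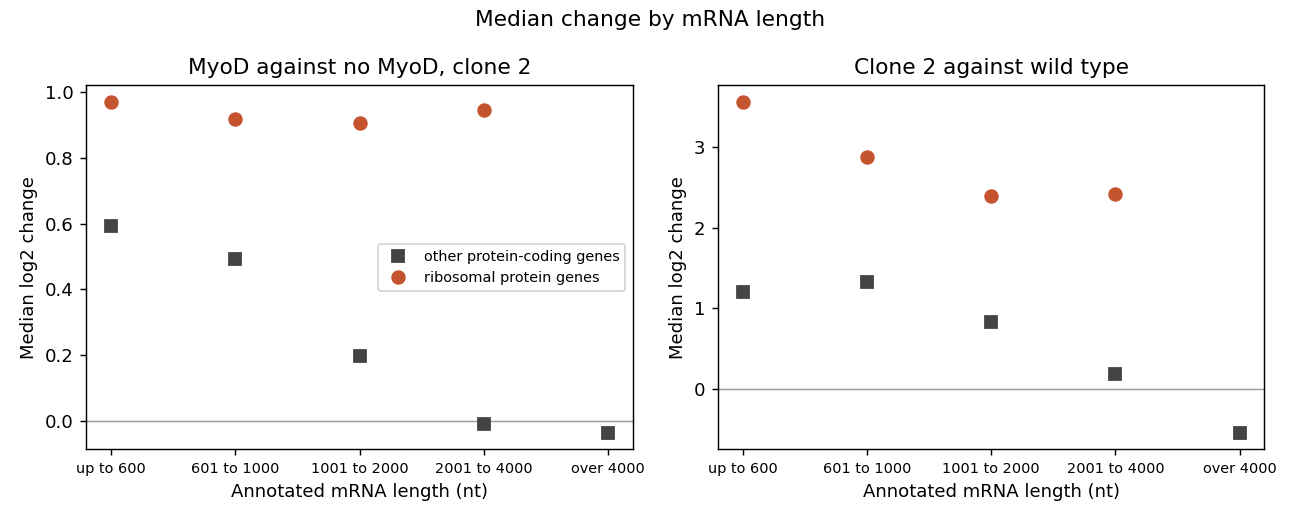
Median log2 difference of ribosomal protein genes (circles) and other protein-coding genes (squares) by annotated mRNA length, for MyoD in clone 2 and for clone 2 against wild type. With MyoD in clone 2, other genes go from 0.59 in the shortest class to −0.04 in the longest, and the members stay at 0.91 to 0.97. For clone 2 against wild type, other genes go from 1.2 to −0.55. There the members also fall, from 3.57 in the shortest class to 2.40 and 2.42 in their 2 longest.

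Several library properties moved with these results. The ribosomal RNA window was 3.88 ± 0.919% of TPM in clone 2 without MyoD and 6.48 ± 1.03% with it, mitochondrial genes 8.78 ± 1.07% and 12.2 ± 2.04%, and genes at 1 TPM or more numbered 14682 to 15202 without and 13434 to 13823 with it. The 10 fibroblast markers summed to 3273 ± 214 scaled TPM without and 1416 ± 181 with MyoD in clone 2 (6 fell and 1 rose). The 6 muscle markers summed to 1.04 ± 0.512 and 218 ± 61.5 (SD, n = 4 each, 6 of 6 rose). Over all genes 5.14% rose and 3.46% fell with MyoD in clone 2. In wild type the muscle markers went from 0 to 31.8 ± 3.07 and in clone 1 from 0.677 ± 1.35 to 11.2 ± 3.87. Processed pseudogene copies of the members, 1508 genes matching 75 members, held 37.4 to 43.1 TPM per 100 TPM of the members in clone 2, against 56.2 to 71.9 for wild type and 65.4 to 108 for clone 1. The part of these properties in the results was not tested, and the difference of clone 2 from the other lines cannot be told apart from how its libraries differ.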

How the data were processed

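Poly(A) RNA was converted to cDNA with SMART-Seq v4, which does not mark strand, fragmented with a transposase and read as pairs of 100 nt, per the labels' protocols. The authors deposited 1 StringTie transcript file per library, in GRCm38 coordinates with GENCODE vM21 names, giving coverage, FPKM and TPM per assembled transcript, per the file headers. The submitters' processing notes name Trimmomatic 0.36, HISAT2 2.1.0, SAMtools 1.3 and StringTie 1.3.3, while the file headers give StringTie 2.1.2. The transcripts differ between files, and a gene whose transcript was not assembled in a library is listed at 0.

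TPM was summed per gene and library. An unnamed transcript was assigned by overlap, where 50% or more of its exonic length lay in exons of 1 gene on the same strand. Libraries were scaled by the median of ratios over 7646 genes, and limma 3.58.1 (R 4.3.3, trend) was fitted to log2(scaled TPM + 1) with 12 groups of 2 libraries, which leaves 12 residual degrees of freedom. It tested 18400 genes at 1 TPM or more in at least 2 libraries, with p-values adjusted by Benjamini-Hochberg over all of them in each of 8 comparisons, called under 0.05. The method was tested on simulated data. Processed pseudogene copies were found with blastn 2.17.0 (at least 80% identity over 50% of their length). Reads cannot be divided between a member and its near-identical copies, and without counts the sampling error of a value is unknown.

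The members and the gene lists were chosen with earlier results of these data known. Named members were those with fixed roles or paralogs, up to 5 called members with the largest rise and 5 with the largest fall in each comparison, the 3 highest and 3 lowest by median, and those at 0 in both libraries of a group. From other lists up to 3 called genes per comparison were named. Promoters came from RefSeq (GRCm38.p6). Alternatives were other scalings, pseudocounts, filters, call rules and transcript sets, exon coverage, subsets of lines, a replicate block and leaving out each library. Adding the TPM of copies and scaling to other protein-coding genes were chosen after seeing the data. The values of 1 member are not reported here, and it is counted in the totals.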

Additional observations from a re-analysis of the deposited data

Results flagged for a closer look

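In 18 members the difference with MyoD in clone 2 was larger than that in wild type by limma's interaction test (adjusted p under 0.05, 4 libraries in each arm). Over all genes 1.35% were higher and 1.15% lower by this test. The count was 3 by the deposited TPM, by quantile normalization and by scaling to other protein-coding TPM. There 0.875%, 0.582% and 0.239% of all genes were higher. For 17 of the 18 members the excess on the log2 scale is given here. It was 2.185 in Rps24, 1.81 in Rpl27, 1.54 in Rps27a, 1.34 in Rps13 and 1.302 in Rpl23. It was 1.18 in Rpl12, 1.18 in Rpl31, 1.15 in Rpl6, 1.12 in Rps6 and 1.09 in Rpl35. It was 1.07 in Rpl7, 1.07 in Rps20, 1.03 in Rpl13a, 1.03 in Rpl13, 0.99 in Rpl8, 0.99 in Rps15 and 0.92 in Rplp1. On reference-named transcripts alone the value was −1.34 in Rpl13.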

How the results depend on the processing

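With the TPM as deposited, members called were 29 for MyoD in clone 2 (median 0.51), 28 higher and 1 lower. Over all genes 4.03% were higher and 16.4% lower there. For clone 1 against wild type 27 members were called, all lower (median −0.34), where 1.33% of all genes were higher and 14.7% lower. For the excess of the MyoD response in clone 2, 3 were called, all higher (median 0.45), where 0.875% of all genes were higher and 6.74% lower. The clone 2 median against wild type was 5.38. Rps27l with MyoD in clone 2 became −0.0097 and Rps12 in clone 2 against wild type 1.46. This scaling moved the median of all genes to −0.25 for MyoD in clone 2 and to 1.39 for clone 2 against wild type. With quantile normalization 26 members were higher for MyoD in clone 2 (median 0.61), against 2.38% of all genes. For the excess 3 were higher (median 0.60), against 0.582%, and Rpl26 in clone 2 against wild type became −0.046. Scaled to other protein-coding genes, 23 members were higher for MyoD in clone 2 (median 0.70), against 1.89% of all genes. For the excess 3 were higher (median 0.62), against 0.239%, and the clone 2 median against wild type was 3.36. A pseudocount of 0.1 gave a clone 2 median of 3.14 and 11 higher for the excess, against 0.967% of all genes. A filter of 1 TPM in all libraries gave 1 higher for MyoD in clone 1, against 0.27% of all genes.

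On reference-named transcripts alone 26 members were higher for MyoD in clone 2, against 4.41% of all genes. For MyoD in wild type 1 was higher and 1 lower, against 0.234% and 0.0599%. For the excess 7 were higher, against 1.198%. With MyoD in clone 2, Rpl30 became −0.056, Rps12 −0.33 and Rpl3 −0.034. Rps12 became 0.36 in clone 1 and 0.058 in clone 2 against wild type, and the excess became −1.34 in Rpl13. Exon coverage gave medians of 0.058 for clone 1 and 2.50 for clone 2 against wild type. It called 41 members higher for the excess, where 3.76% of all genes were higher. Requiring also a log2 change of at least 1 left 22 higher for MyoD in clone 2, against 2.08% of all genes. For clone 1 against wild type it left 0, where 1.36% of all genes were higher and 3.17% lower. With copies added, clone 1 against wild type had 12 higher and 4 lower (median 0.094), against 4.12% and 8.24% of all genes. The clone 1 excess had a median of 0.14, and Rps2 with MyoD in clone 2 became 0.53. Fitting only the lines compared gave medians of 0.75 for MyoD in clone 2 and 2.79 for clone 2 against wild type. For clone 1 against wild type 2 were higher and 1 lower, against 3.37% and 6.87% of all genes. For the excess 30 were higher, against 2.72%, and Rpl26 in clone 2 against wild type became −0.078.

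Leaving out each library in turn called 37 to 45 members for MyoD in clone 2 (medians 0.90 to 0.96), 0 to 2 for MyoD in clone 1 (0 to 0.13) and 0 for MyoD in wild type (−0.055 to 0.066). Against wild type it called 6 to 11 for clone 1 (−0.13 to −0.058) and 76 to 77 for clone 2 (2.90 to 3.04). For the excess it called 0 to 1 in clone 1 (−0.052 to 0.13) and 7 to 17 in clone 2 (0.83 to 0.97), and for the plasmid 0 (−0.019 to 0.042). The 7 came without the second wild-type plasmid library. The share over all genes is not given for these fits. Rpl26 in clone 2 against wild type ranged from −0.095 (without the second untreated clone 2 library) to 0.34, and Rps2 with MyoD in clone 2 from −2.39 to 0.21 (without the second clone 2 MyoD library). Same-numbered libraries did not deviate together (correlations from −0.04 to 0.05). The fit with a replicate block called 49 members higher for MyoD in clone 2, against 4.83% of all genes. For clone 1 against wild type it called 4 higher and 5 lower, against 3.89% and 8.1%. For MyoD in clone 2, 607 values of 28 named members were recomputed in all: 497 kept their direction and side of the threshold, 88 lost the call, 16 gained one and 6 changed sign. Of 510 values for the excess in clone 2, 317 were kept, 192 lost the call and 1 changed sign. The cause of these shifts was not tested.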
